A study of Triticum aestivum with 6 samples.

Results

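The first 20 Mb of chromosome 2A of bread wheat (Triticum aestivum) held 502 of the 107891 genes of the deposited table, taken as every row on 2A with a start coordinate under 20000000. The region was selected on measured values, because purple and white grain were already known to differ there, so the values of its genes are given as a description and without p-values. Of the 502 genes, 257 had a count in at least 1 library, and 113 reached the mean of 0.5 FPKM over 6 libraries that a gene needed to enter the differential expression fit. FPKM is a read level scaled for gene length and library size.

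The study measured RNA by sequencing in a purple-grained and a white-grained wheat, with 3 libraries per grain type, all collected 30 days after flowering. Both wheats grew in pots in the same climate chamber conditions. The labels give grain as the tissue, while the extraction protocol names stems and buds. They give no pedigree, variety name or plant number, so grain colour cannot be told apart here from the rest of their genetic background, and the spread between libraries of a grain type may be technical.

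Bread wheat is hexaploid. Each of its chromosome groups exists on the A, B and D subgenomes, and most genes have a counterpart, a homoeolog, at a matching place on the other subgenomes. The start of chromosome 2A is the end of its short arm, a region rich in disease resistance genes, and breeders have replaced it in some wheats with a segment of the wild relative Aegilops ventricosa. Whether either wheat here carries such a segment was not tested. In bulk tissue, fewer cells of a type and less RNA per cell cannot be told apart. Copies of a gene on A, B and D, and neighbouring near-identical genes, can share reads, so the value of a single copy is uncertain.

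Library totals ran from 80898310 to 102868886 counts in purple grain and from 78660932 to 88002127 in white grain. Purple replicate 3 was unlike its group. Over log2 FPKM values, Pearson's r was 0.885 between it and purple replicate 1, 0.892 between it and purple replicate 2, and 0.836 to 0.864 between it and a white library. Between purple replicates 1 and 2 it was 0.945. Among white libraries it was 0.913 between replicates 1 and 2, 0.898 between 1 and 3, and 0.948 between 2 and 3. Gliadin and glutenin genes, markers of starchy endosperm, held 8.229%, 8.998% and 21.29% of summed FPKM in purple libraries and 16.88%, 10.47% and 19.43% in white libraries. Oleosin and late embryogenesis genes, markers of embryo and aleurone, held 0.235%, 0.435% and 0.0872% in purple and 0.0684%, 0.0685% and 0.0479% in white. Chlorophyll-binding and Rubisco small subunit genes held at most 0.0262% in purple and 0.0364% in white, and stem and dividing tissue genes 0.0587% to 0.139% in purple and 0.0512% to 0.0767% in white. None of these marker genes lies in the region (0 members of each list), and their part in the values below was not tested.

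Genes of the region fell into an outer segment, starting under 10 Mb, where both grains had similar levels, and an inner segment, starting at 10 to 20 Mb, where most genes were lower in purple. The border was set after the values were seen. In the outer segment, summed FPKM was 287.8, 235.1 and 288.1 in purple libraries and 220.0, 342.6 and 293.9 in white libraries, with overlapping ranges. In the inner segment it was 168.1, 169.6 and 118.1 in purple libraries and 548.9, 492.2 and 410.0 in white libraries, so every purple library lay below every white one. Without a single heat shock protein 90 gene that varied widely within each grain, the inner sums were 135.3, 133.7 and 115.7 in purple and 423.4, 476.1 and 406.5 in white.

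**Figure D1:**
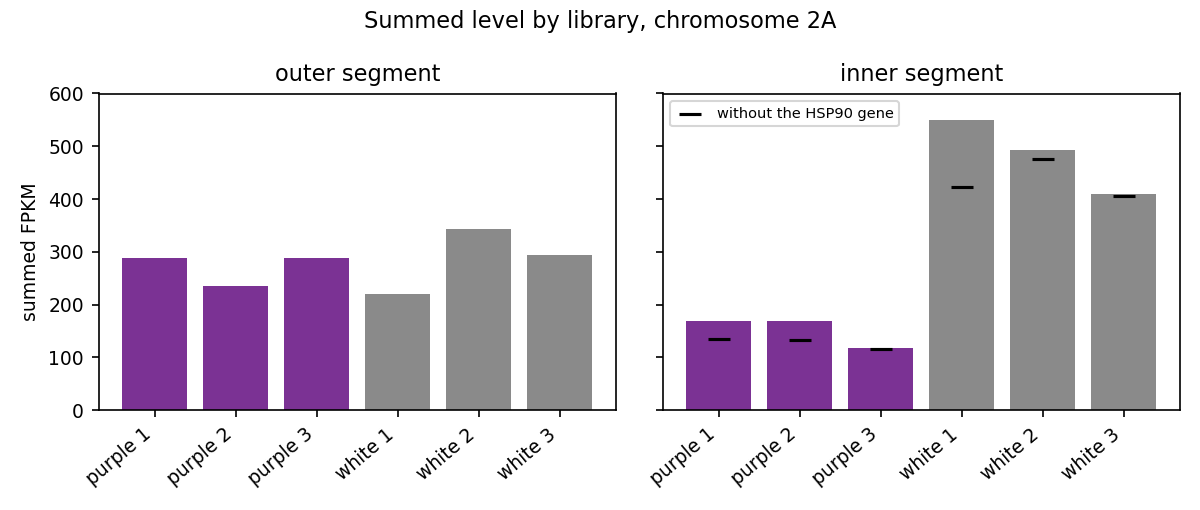
Summed FPKM (vertical axis) of the genes of the outer segment (206 genes, left) and the inner segment (296 genes, right) in each library, purple bars left of grey white-grain bars; black ticks leave out the heat shock protein 90 gene. In the inner segment the purple libraries reach 118.1 to 169.6 and the white ones 410.0 to 548.9, while in the outer segment the ranges overlap.

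The number of genes detected differed in both segments, in opposite directions. Over the whole table a purple library counted 67396 to 68885 genes and a white library 65058 to 66222. The outer segment went in the same direction as the table, with a wider relative gap. A purple library counted 80 to 81 genes of the outer segment, and a white library 66 to 69. In the inner segment a purple library counted 80 to 86 genes, against 122 to 125 in a white library. Over the whole region 28 genes had counts only in purple and 63 only in white, 166 had counts in both grains, and 245 had none in any library. The purple-only genes divided into 20 in the outer and 8 in the inner segment, and the white-only genes into 8 and 55. Outside the region, 7048 of 107389 genes had counts only in purple and 4858 only in white.

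Among genes with a white mean of at least 0.5 FPKM, the purple mean of the inner segment was typically a small part of the white one. Entry by white level passes over genes high in purple alone, so these ratios lean low in any part of the table. Of 79 such genes in the inner segment, 16 had 0 counts in every purple library, 9 lay above 0 and under 5% of the white mean, 20 at 5% to under 25%, 19 at 25% to under 50%, 10 at 50% to under 100%, and 5 at or above the white mean (3 under 200% and 2 at 200% or more). Their median was 16.2% of the white mean. In the outer segment 0 of 40 genes lacked counts in purple, 2 lay under 25%, and the median was 88.4%, which is also the median over the 46326 genes of the table outside the region. By library, the median inner gene stood at 13.8%, 21.1% and 9.40% of its white mean in purple replicates 1, 2 and 3. The lowest of these belongs to purple replicate 3, which stood apart from the other purple libraries.

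Counted over the whole region, 16 of 119 genes with a white mean of at least 0.5 FPKM had 0 counts in purple, where the table as a whole gave 1.15%. In the other direction 3 of 84 genes with a purple mean of at least 0.5 FPKM had 0 counts in white, against 1.45% in the table; this count was 5 without purple replicate 3 and 6 without white replicate 1. The fit with edgeR's quasi-likelihood test called 34 of 113 tested genes lower in purple, beside 2.32% of all 48492 tested genes, and 4 higher, beside 2.87%. A call meant a Benjamini-Hochberg adjusted p under 0.05 over all tested genes together with a log2 difference of 1 or more in size. Because the region was selected on this contrast, nothing is read from those shares. The number called lower was 18 without white replicate 2 and 19 without white replicate 3, and the number called higher was 1 without purple replicate 1, purple replicate 2, white replicate 2 or white replicate 3. All 34 genes called lower lay in the inner segment, among 70 tested there, and none of the 43 tested genes of the outer segment was called lower (0). All 3 purple libraries lay below all 3 white ones in 63 of 113 genes, beside 19.9% of the table, and above them in 12, beside 13.3%.

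The median log2 difference, purple over white, of the 113 tested genes was -0.93, beside 0.02 for all tested genes. It was 0.13 over the 43 genes of the outer and -2.13 over the 70 genes of the inner segment. These medians were the same with genes of 0 counts placed at the bound that 3 counts per library give. Those genes stay on the same side of the median at their bound, so the medians could not have moved. For genes without counts in one grain, 3 counts in each of its libraries stood in for 0, so their folds are minimum values and cover counting error only.

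**Figure D2:**
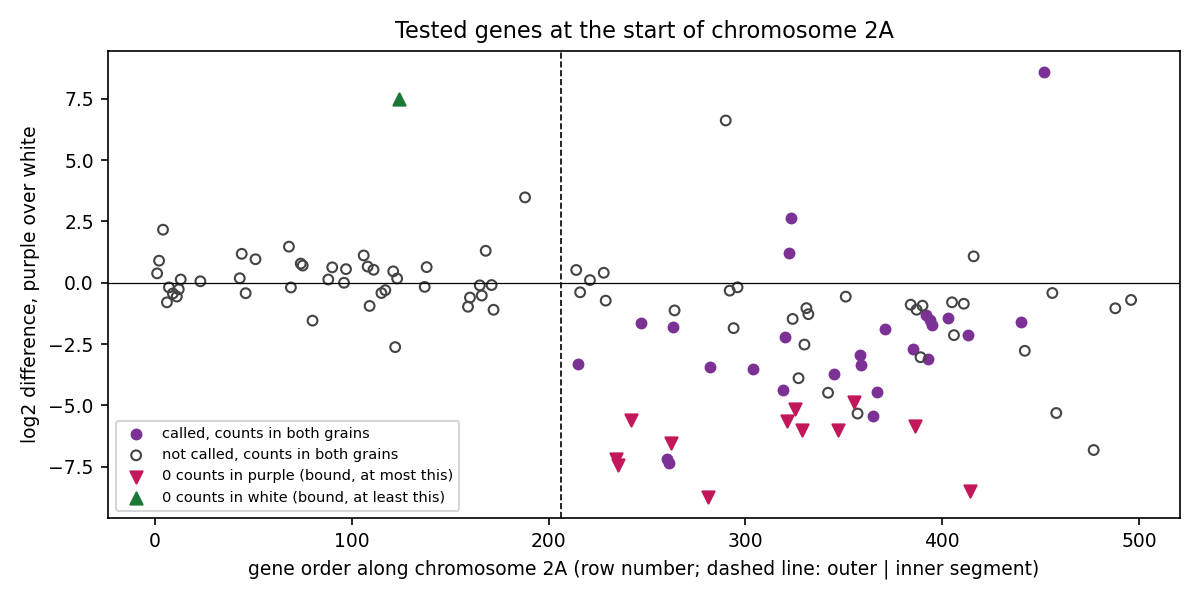
The log2 difference, purple over white (vertical axis), of the 113 tested genes against their order along chromosome 2A (horizontal axis), with the border between outer and inner segment dashed; triangles are bounds for genes without counts in one grain. Points of the outer segment scatter around 0, with a median of 0.13, and those of the inner segment lie mostly below it, with a median of -2.13.

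The region was also read in steps of 2 Mb. In the 5 outer steps, all purple libraries lay below all white ones in 2 of 10, 1 of 13, 4 of 12, 0 of 4 and 1 of 4 tested genes. In the 5 inner steps the counts were 6 of 10, 9 of 11, 20 of 24, 17 of 19 and 3 of 6. The genes called lower numbered 5, 6, 13, 10 and 0 in the same inner steps. The first gene called lower, counted from the chromosome start, was TraesCS2A02G022100 (2A:10596264-10602559, minus strand), named as an E3 ubiquitin ligase related to BIG BROTHER, which limits organ size in Arabidopsis. It had 1.13, 0.46 and 1.20 FPKM in purple libraries and 9.21, 10.8 and 9.85 FPKM in white libraries, so the grains did not overlap. Genes beyond it were at similar levels in both grains for a stretch: TraesCS2A02G022700 at 10.99 Mb, named as the ClpS adapter of the Clp protease, had 3.65, 2.15 and 2.45 FPKM in purple and 2.47, 2.83 and 2.92 FPKM in white.

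Lower levels in purple were frequent from 11.54 Mb on. Taking only genes with a white mean of at least 0.5 FPKM, 17 in a row, up to 13.83 Mb, had every purple library below every white library, the longest of 8 such runs of 3 or more genes. The other 7 runs held 7, 5, 4, 11, 12, 3 and 3 genes and ended at 19.13 Mb. Because these runs count genes by their level in white, they pass over genes that were high in purple alone, such as TraesCS2A02G029400 and TraesCS2A02G029600 at 13.12 and 13.13 Mb. At the 20 Mb limit, the last gene inside with a white mean of at least 0.5 FPKM, TraesCS2A02G050700 at 19.9 Mb, had 0 counts in purple and a mean of 0.99 FPKM in white. The last tested gene inside, TraesCS2A02G050600 (a 70 kDa peptidyl-prolyl isomerase, which helps proteins fold), had a mean of 10.7 FPKM in purple and 18.0 FPKM in white. Its ranges overlapped, with 14.6, 11.5 and 5.94 FPKM in purple and 31.5, 12.5 and 9.89 FPKM in white. The first tested gene outside, TraesCS2A02G052400 (a Pumilio-like protein, of a family that binds RNA), had a mean of 0.96 FPKM in purple and 3.35 FPKM in white. Past the limit, 14 of 34 tested genes from 20 to 30 Mb had all purple libraries below all white ones, 8 of them among the 13 genes at 26 to 28 Mb, and 13 of 60 from 30 to 40 Mb.

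**Figure D3:**
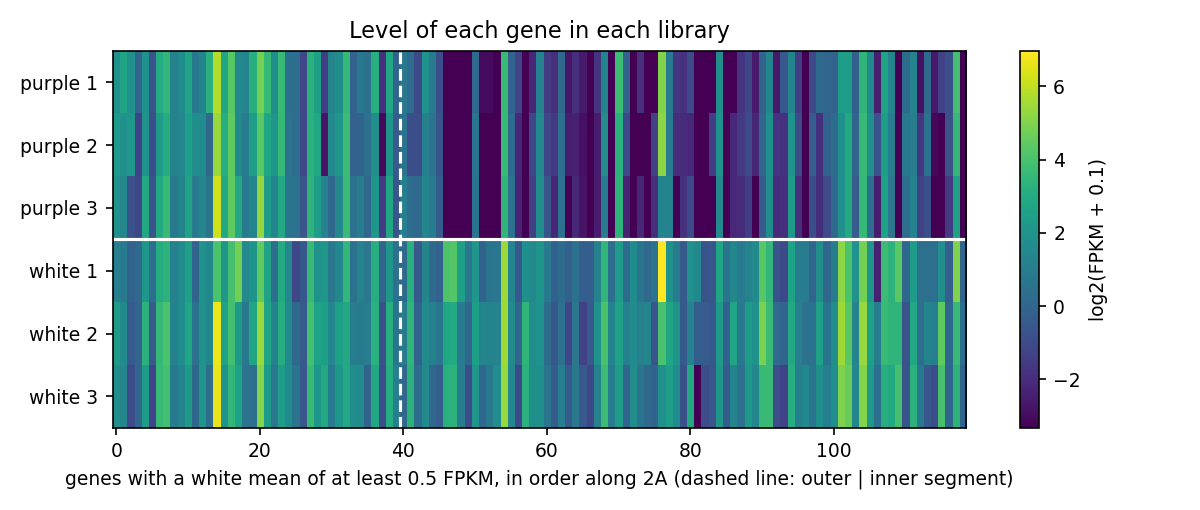
log2(FPKM + 0.1) (colour) of the 119 genes with a white mean of at least 0.5 FPKM, in order along chromosome 2A (horizontal axis), in 3 purple libraries above 3 white ones. Dark columns in the purple rows to the right of the dashed border include the 16 genes with 0 counts in every purple library; 0 of the 40 genes to its left lack counts in all purple libraries.

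Runs without any counts in purple were short. Taking genes with a white mean of at least 0.5 FPKM in order, only 1 run of 3 or more had 0 counts in every purple library, with 4 genes from 11649921 to 11916714, a length of 266.8 kb that spans 10 rows of the table; without purple replicate 1 or without purple replicate 2 there were 2 runs. Its first genes, TraesCS2A02G024000 (2A:11649921-11650453, plus strand) and TraesCS2A02G024100 (2A:11690963-11691530, plus strand), carry the same description of a hypothetical Triticum urartu protein. TraesCS2A02G024100 had 0 counts in each purple library and 18.6, 7.83 and 9.86 FPKM in white libraries, at least 173-fold lower in purple. TraesCS2A02G024000 had 0 counts in purple and 16.9, 7.11 and 9.05 FPKM in white, at least 145-fold lower. Both were highest in white replicate 1.

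The run ends with a pair of cysteine-rich receptor-like kinases, membrane proteins that plants use in responses to pathogens and stress. TraesCS2A02G024800 (2A:11914014-11915162, minus strand) had 0 counts in purple and 5.73, 1.84 and 1.88 FPKM in white, at least 48.3-fold lower in purple. TraesCS2A02G024900 (2A:11915223-11916714, minus strand) had 0 counts in purple and 1.59, 0.96 and 0.43 FPKM in white. Counting all rows, levels aside, the longest stretch without purple counts had 22 genes at 17.03 to 17.61 Mb, of which 9 had counts in white, 283 in total. The outer segment had stretches that were nearly silent in both grains, such as 16 genes at 5.71 to 7.23 Mb with 0 counts in purple and 2 white counts in all. These stretches were chosen after their values were seen.

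Next to the first run, at 12.29 to 12.32 Mb, 3 consecutive genes had purple means under 5% of white. TraesCS2A02G026600 (2A:12287484-12289174, plus strand) is named as a 12-oxo-phytodienoic acid reductase, an enzyme family that includes the jasmonate synthesis step of this name. It had 0.02, 0 and 0 FPKM in purple and 0.85, 2.45 and 1.02 FPKM in white. TraesCS2A02G026800 (2A:12315023-12316569, minus strand) is described as like 1-aminocyclopropane-1-carboxylate oxidase, the ethylene-forming enzyme of a large dioxygenase family. It had 0 counts in purple and 1.54, 2.34 and 3.20 FPKM in white, at least 91.9-fold lower in purple. The gene of the same description on 2B, TraesCS2B02G040100, was also lower in every purple library. It had 0.33, 0.11 and 0.19 FPKM in purple and 0.41, 14.5 and 7.49 FPKM in white. The one on 2D, TraesCS2D02G028900, had 1.59, 1.35 and 0.16 FPKM in purple and 2.16, 2.61 and 1.41 FPKM in white, with overlapping ranges. The 7 genes of the region with this kind of description together had 15, 0 and 0 counts in purple libraries and 432, 612 and 637 in white libraries; they were grouped after their values were seen.

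Of the genes without purple counts, the one with the highest white level was TraesCS2A02G042200 (2A:16899419-16901079, minus strand), annotated with sedoheptulose-bisphosphatase activity, that of an enzyme of sugar phosphate turnover. It had 0 counts in purple and 19.9, 10.6 and 15.1 FPKM in white, at least 362-fold lower in purple. TraesCS2A02G028700 (2A:13013184-13015074, plus strand) is annotated with flavonoid glucosyltransferase activities, which attach sugar to flavonoids. It had 0 counts in purple and 3.47, 10.5 and 9.50 FPKM in white, at least 420-fold lower in purple. Both were present in every white library and absent from the counts of every purple one.

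TraesCS2A02G033500 (2A:14976663-14978691, minus strand), a nicotianamine synthase that makes a chelator of iron and zinc, had 0 counts in purple and 1.09, 2.46 and 1.03 FPKM in white. TraesCS2A02G039400 (2A:16432753-16434643, minus strand), a beta-glucosidase of the enzymes that free glucose from glucosides, had 0 counts in purple and 1.91, 1.38 and 2.72 FPKM in white. The remaining named genes of this kind were TraesCS2A02G033100, with a white mean of 3.12 ± 0.15 FPKM (SD, n = 3), and TraesCS2A02G032700, a putative hydrolase with 1.85 ± 0.59 FPKM.

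Some abundant genes of the inner segment were lower in purple in every library but kept counts there. TraesCS2A02G026900 (2A:12324869-12327912, plus strand), annotated to membranes of the endoplasmic reticulum and Golgi, had 12, 12.5 and 10.7 FPKM in purple and 43.9, 44.9 and 42.1 FPKM in white, a log2 difference of -1.80 ± 0.19 (SE). TraesCS2A02G041100 (2A:16672081-16677954, minus strand) is named as the dihydrolipoyllysine-residue succinyltransferase, part of the 2-oxoglutarate dehydrogenase complex of the citric acid cycle. It had 10.6, 12.6 and 11.9 FPKM in purple and 28.3, 41.5 and 32.9 FPKM in white, a log2 difference of -1.43 ± 0.19 (SE). These 2 genes kept a steady level within each grain, and the grains did not overlap.

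TraesCS2A02G040100 (2A:16550089-16552930, plus strand), annotated as a serine-type endopeptidase of the Golgi, had 5.18, 3.50 and 3.47 FPKM in purple and 35.8, 45.2 and 31.8 FPKM in white. TraesCS2A02G033700 (2A:15001542-15004849, minus strand), the heat shock protein 90 gene, a chaperone, differed more within than between grains. It had 32.8, 35.9 and 2.41 FPKM in purple and 125.5, 16.1 and 3.52 FPKM in white. The ranges overlapped, with the lowest level of each grain in its replicate 3.

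Further genes with counts in both grains were reduced to traces. TraesCS2A02G048600 (18.83 Mb), annotated with methyltransferase activity, had 0.30, 0 and 0 FPKM in purple and 3.20, 21.3 and 15.7 FPKM in white. TraesCS2A02G037200 (15.87 Mb), annotated to the chloroplast stroma, had 0.07, 0.11 and 0 FPKM in purple and 2.93, 3.76 and 2.65 FPKM in white. TraesCS2A02G036300 (15.61 Mb), a cytosolic acetyl-CoA acetyltransferase, the enzyme that opens the mevalonate pathway, had 0, 0.12 and 0.12 FPKM in purple and 2.71, 6.50 and 2.41 FPKM in white. In each of these 3 genes every white library exceeded every purple one. TraesCS2A02G034800 (15.23 Mb), annotated with hydroxypyruvate reductase activity of photorespiration, averaged 0.12 ± 0.11 FPKM in purple and 3.00 ± 1.03 FPKM in white (SD, n = 3 each).

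A few genes of the inner segment stood higher in purple. TraesCS2A02G029600 (2A:13134946-13136883, minus strand), named as an RPP13-like protein, one of the intracellular immune receptors with nucleotide-binding and leucine-rich repeat domains (NLR), had 6.81, 8.18 and 7.37 FPKM in purple and 0.23, 0 and 0 FPKM in white. The fit did not call this gene higher. TraesCS2A02G046000 (2A:18006418-18011773, plus strand), annotated to benzoxazinoid synthesis, which makes defence compounds of grasses, had 6.002, 6.766 and 0.267 FPKM in purple and 0, 0.03 and 0 FPKM in white. Its level in purple replicate 3 was far below that of the other purple libraries, yet above all white ones.

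The adjacent genes TraesCS2A02G032800 and TraesCS2A02G032900, at 14.88 and 14.89 Mb, were also higher in purple. The first had 13.7, 9.35 and 10.3 FPKM in purple and 4.65, 5.79 and 5.02 FPKM in white. The second, annotated to the SCF ubiquitin ligase complex that marks proteins for degradation, had 2.21, 2.84 and 1.98 FPKM in purple and 0.31, 0.43 and 0.45 FPKM in white. TraesCS2A02G029400 (13.12 Mb) had 1.34, 0.85 and 0.64 FPKM in purple and 0 counts in white. TraesCS2A02G033900 (15.01 Mb), annotated to phenylpropanoid synthesis, had 0, 0.49 and 0.87 FPKM in purple and 0 counts in white.

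Among the abundant genes of the outer segment, ranges of the grains overlapped in some and not in others. TraesCS2A02G007300 (2A:3111972-3114111, plus strand), of unknown function, had 55.9, 41.6 and 75.8 FPKM in purple and 16.6, 103.7 and 100.5 FPKM in white, so the purple range lay within the white one. TraesCS2A02G010100 (2A:3959343-3962913, plus strand), the alpha subunit of pyruvate dehydrogenase E1, which feeds pyruvate into the citric acid cycle, had 28.1, 20.3 and 40.5 FPKM in purple and 21.8, 42.9 and 33.0 FPKM in white. Its log2 difference was 0.00 ± 0.32 (SE). TraesCS2A02G007900 (3.45 Mb), a peptidyl-prolyl isomerase, averaged 20.8 ± 0.98 FPKM in purple and 13.7 ± 2.31 FPKM in white (SD, n = 3 each), with no overlap.

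Near the end of the arm, TraesCS2A02G000100 (0.25 Mb), the polycomb protein EMBRYONIC FLOWER 2, which keeps developmental genes silent in Arabidopsis, averaged 3.95 ± 0.53 FPKM in purple and 3.36 ± 1.42 FPKM in white (SD, n = 3 each). TraesCS2A02G012200 (4.79 Mb), a Sec24-like coat protein of vesicles that leave the endoplasmic reticulum, averaged 9.77 ± 0.52 FPKM in purple and 13.1 ± 1.46 FPKM in white. The exception in kind was TraesCS2A02G012900 (2A:4978101-4982374, minus strand), a receptor-like protein kinase with 1.015, 1.662 and 1.498 FPKM in purple and 0 counts in white, at least 177-fold higher in purple. Its neighbours at 5.31 to 5.63 Mb also favoured purple: TraesCS2A02G013200, a brassinosteroid-6-oxidase of steroid hormone synthesis, had 0.60, 0.41 and 0.22 FPKM in purple and 0 counts in white. TraesCS2A02G013600 had 0.69, 0.67 and 0.42 FPKM in purple and 0 counts in white.

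By gene lists made from the descriptions, disease resistance NLR genes were the most numerous, with 49 members of which 33 had counts. Of 9 tested, 1 was called lower and 0 higher, beside 2.32% lower and 2.87% higher of all tested genes of the table. Their median log2 difference was -0.32, beside 0.25 for the 163 NLR genes tested in the table. In the inner segment 8 of them were tested, with a median of -0.25. The NLR with the highest mean, TraesCS2A02G008400 (3.61 Mb), had 2.74, 2.95 and 7.22 FPKM in purple and 27.7, 4.80 and 5.92 FPKM in white, with overlapping ranges. TraesCS2A02G030000 (13.81 Mb), whose description is an NLR of Aegilops ventricosa, Vrga1, had 109, 140 and 176 counts in purple and 559, 387 and 544 in white. It was chosen after its values were seen, and a description names the best matching protein, not the origin of a gene.

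Cytochrome P450 genes numbered 24, with counts in 8 and 0 tested, and the highest of them, TraesCS2A02G013500 (5.53 Mb), had 0.62, 0.87 and 0.56 FPKM in purple and 0.47, 0.18 and 0.07 FPKM in white. Of 20 receptor-like kinases 2 were tested, with 1 called lower, in the inner segment, and 1 higher, in the outer. Among 7 glycosyltransferases 1 was tested and 0 called, and the highest, TraesCS2A02G009500 (3.82 Mb), named as an anthocyanidin glucosyltransferase, had 8.86, 5.43 and 2.39 FPKM in purple and 3.94, 6.70 and 1.25 FPKM in white. The 10 transcription factors, 8 transporters, 7 proteases and inhibitors, 4 translation, 3 RNA and organelle and 3 chromatin genes gave 0 calls, with 1, 1, 1, 2, 3 and 3 tested. No storage or lipid transfer gene lay in the region (0), and the 4 photosynthesis genes had no counts (0 of 4). The 353 genes in no list supplied 87 of the tested genes, 31 of those called lower and 3 of those called higher.

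The region holds 5 chalcone synthase genes, of the first committed enzyme of flavonoid and anthocyanin synthesis, of which 1 had counts. That gene, TraesCS2A02G035300 (2A:15394765-15396518, plus strand), had 0 counts in purple and 409, 106 and 0 counts in white libraries. A chalcone synthase gene on 2B at 24.09 Mb, TraesCS2B02G048400, had 610, 293 and 278 counts in purple and 0 in each white library, and one on 2D at 13.42 Mb, TraesCS2D02G034500, had 522, 163 and 0 counts in purple and 34, 0 and 0 in white.

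To set each gene beside its homoeologs, triads were formed from descriptions held by exactly 1 gene in the first 20 Mb of 2A, 1 in the first 40 Mb of 2B and 1 in the first 20 Mb of 2D. Of 63 such triads, 35 had a summed mean of at least 1 FPKM, 15 in the outer and 20 in the inner segment. The share of the 2A copy in the 3 copies' FPKM was lower in all purple libraries than in all white ones in 17 of the 20 inner triads and in 1 of the 15 outer ones. It was higher in 0 inner and 2 outer triads. The region and the segment border were chosen on 2A values, and the 2B and 2D copies were not, so the lower 2A shares are description only. The median 2A share of the inner triads was 6.63%, 7.31% and 7.85% in purple libraries and 36.3%, 27.0% and 28.8% in white libraries. In the outer triads it was 30.0%, 29.6% and 28.7% in purple and 29.0%, 28.6% and 26.6% in white.

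**Figure D4:**
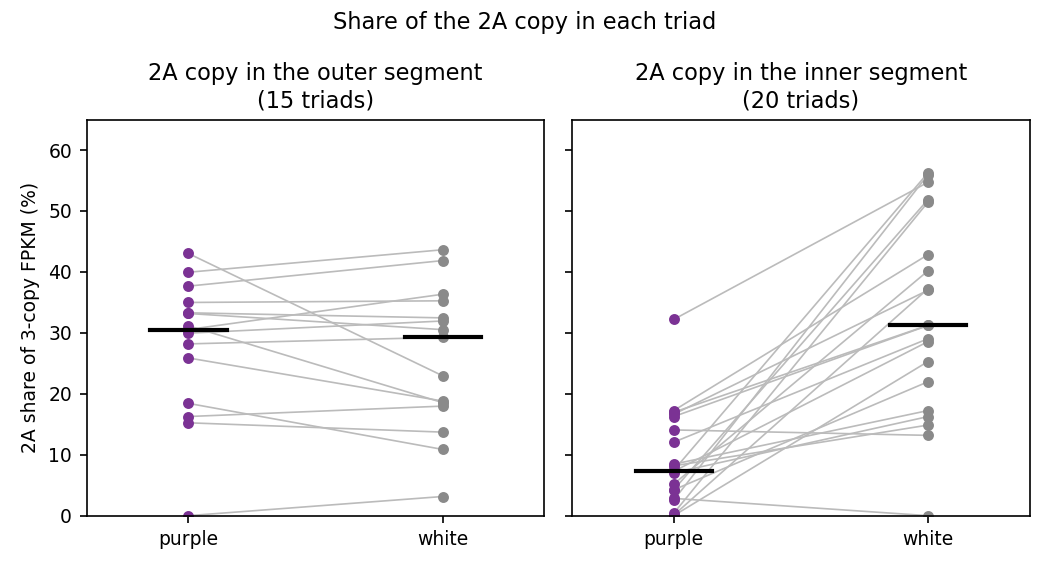
Share of the 2A copy in the FPKM of the 3 copies (vertical axis, mean of 3 libraries) in 15 outer and 20 inner triads, purple left and white right, with lines joining a triad and black bars at the median. Inner triads have a median of 7.36% in purple and 31.2% in white, and outer ones 30.6% in purple and 29.3% in white.

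The 2B and 2D copies of the inner triads were at similar or somewhat higher levels in purple at the median. Of 14 tested 2A copies, 6 were called lower in purple and 13 had all purple libraries below all white ones, with a median log2 difference of -2.65. In the whole table, 2.32% of tested genes were called lower and 2.87% higher. Because the 2A copies come from a segment chosen on their values, nothing is read from their calls. Of 18 tested 2B copies 0 were called lower and 1 higher, 2 lay below and 5 above, and the median was 0.45. Of 18 tested 2D copies 0 were called lower and 0 higher, 2 lay below and 2 above, and the median was also 0.45. The summed FPKM of the 3 copies in purple was 0.913 of that in white at the median of the inner triads, with 2 of 20 sums below and 1 above in all libraries. For the outer triads this ratio was 0.892.

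**Figure D5:**
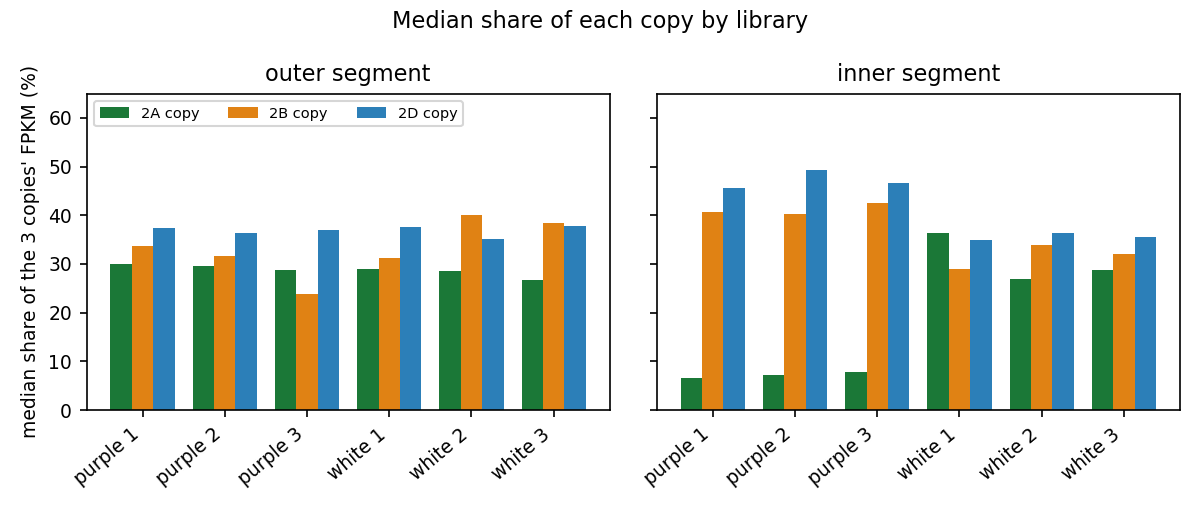
Median share of the 2A, 2B and 2D copies in the FPKM of a triad (vertical axis) by library, purple libraries left of white ones, for 15 outer triads (left) and 20 inner triads (right). In the inner triads the 2A copy takes 6.63% to 7.85% in purple and 27.0% to 36.3% in white. The shares are parts of the same sum, so a lower 2A share raises those of the 2B and 2D copies together, whatever their levels.

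The largest difference in share was in TraesCS2A02G037400 (2A:15881908-15883610, minus strand), annotated to defence against bacteria and fungi. Its 2A copy had 0.91, 0.95 and 0.70 FPKM in purple and 19.5, 30.1 and 12.1 FPKM in white. The 2D copy had 36.9, 32.8 and 15.2 FPKM in purple and 13.3, 18.3 and 8.68 FPKM in white. The sum of the 3 copies averaged 36.4 FPKM in purple and 36.5 FPKM in white, while the 2A share was 2.55% in purple and 56.0% in white.

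ATP sulfurylase, which starts sulfate assimilation, had a 2A copy (TraesCS2A02G032500, 14.81 Mb) with 0.20, 0.08 and 0.07 FPKM in purple and 2.18, 3.8 and 2.19 FPKM in white, a share of 4.25% in purple and 51.9% in white. Its 2B copy had 2.17, 0.59 and 2.11 FPKM in purple and 1.37, 0.10 and 0.12 FPKM in white. The 12-oxo-phytodienoic acid reductase gave a share of 0.08% in purple and 37.3% in white, and its 2B copy had 3.43, 1.35 and 2.25 FPKM in purple and 0.97, 1.01 and 0.14 FPKM in white. The grains overlapped for the 2B copy of ATP sulfurylase, and every purple library lay above every white one for the 2B copy of the reductase.

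The share of the methyltransferase TraesCS2A02G048600 was 0.39% in purple and 51.5% in white. That of TraesCS2A02G038000 (15.96 Mb), of unknown function, was 7.44% in purple and 56.3% in white, and that of the ELMO domain gene TraesCS2A02G045000 (17.73 Mb) 5.17% in purple and 40.2% in white. The 2A nicotianamine synthase had no triad by this rule. The counted 2B nicotianamine synthase had 308, 233 and 275 counts in purple and 145, 256 and 226 in white, and the 2D one 547, 648 and 261 counts in purple and 226, 225 and 211 in white; both were chosen after their values were seen.

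Of the outer triads, TraesCS2A02G011600, a Werner syndrome-type DNA helicase, had a 2A share of 43.0% in purple and 23.0% in white. The share of TraesCS2A02G000200, named after the ethylene receptor EIN4 of Arabidopsis, was 31.2% in purple and 18.6% in white, and that of TraesCS2A02G007200 18.4% in purple and 10.9% in white. For pyruvate dehydrogenase E1 alpha the share was 35.0% in purple and 35.3% in white.

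At the matching ends of 2B and 2D, runs were not counted. In the first 40 Mb of 2B, 0 of 133 tested genes were called lower and 8 (6.0%) higher. In the first 20 Mb of 2D, 0 of 120 were called lower and 5 (4.2%) higher. The table shares were 2.32% lower and 2.87% higher. All purple libraries lay below all white ones in 15.8% of tested genes at each end, beside 19.9% of the table. At 10 to 12 Mb of 2B this held for 5 of 11 tested genes. Windows of 20 Mb with at least 30 tested genes numbered 603. By the share of genes with all purple libraries below all white ones, the first 20 Mb of 2A ranked 11, at 55.8%. The 10 windows above it, at 72.3% to 96.4%, were all in the first 200 Mb of chromosome 1B. The next below, on 2B, had 36.9%. Selection of the region on this same contrast favoured a high rank in advance, so nothing is read from the rank.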

How the data were processed

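RNA of 3 purple-grain and 3 white-grain libraries was analysed from 1 deposited gene table. Tools named per the submitters' processing notes are cutadapt, HISAT2 and StringTie. Their settings, the strand setting, the annotation and the genome build: not given in the sources used here. The deposited columns hold, per the file headers, whole-number read counts by gene and library. The same deposited table holds the authors' FPKM values; where the count was 0 the FPKM cell held 0.0001, which was taken as 0. Another 12 columns, of 6 libraries without a matching label, were not used here. Coordinates, descriptions and GO terms come from the table.

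edgeR 4.0.16 in R 4.3.3 (TMM scaling, quasi-likelihood test, no replicate block) was fitted to the counts of the 48492 genes that reached 0.5 FPKM on average over the libraries, with Benjamini-Hochberg adjustment over all of them. The SE was the absolute log2 difference over the square root of F. The steps were tested on simulated counts that varied less between libraries than these data do. That test checks the code and does not show how well true differences are called here. Triads, runs and bounds are defined where they are first used; descriptions too general to name a gene, such as predicted protein, formed no triad. Replicates of a grain were compared and none agreed within counting noise.

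The genes, lists and triads were chosen with earlier results of these data known. Named genes are the 10 highest without purple counts, the 6 highest without white counts, the 8 highest over all libraries, the ends of runs, the 6 largest drops and 3 largest rises of the 2A share, the highest gene of each list, and the 5 largest non-overlapping differences each way with counts in both grains. Some of these are left out of the text. Alternatives changed the scaling, filter, level, test (DESeq2 1.42.0, limma 3.58.1), run rule, triad rule and replicate block, and left out each library; 2 run rules were chosen after seeing the data.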

Additional observations from a re-analysis of the deposited data

How the results depend on the processing

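The median log2 difference and the median 2A share, purple minus white, stayed negative under every alternative run. The other results are counts, which have no direction to change. The 34 genes called lower were 18 to 37 with 1 library left out, and 27 to 45 under the other scalings, filters and tests. The 4 called higher were 9 without a filter, 9 with DESeq2 and 1 to 5 with 1 library left out. The replicate numbers did not pair the samples (correlations of deviations 0.183, 0.00657 and 0.336, replicate 2 not its own best match), and the replicate block gave 25 lower and 2 higher. The 16 genes without purple counts were 29 at a white level of at least 0.1 FPKM and 25 with a purple mean under 0.05 of white. The 3 without white counts were 1 at 1 FPKM, 13 at 0.1 FPKM, 6 with a white mean under 0.05 of purple, and 3 to 6 with 1 library left out. The single run of 4 became 2 runs by the 0.05 rule, 8 runs with a longest of 17 by the rule that all purple libraries lie below all white ones, and 1 to 2 runs with 1 library left out. The median log2 difference of -0.93 was -1.06 when scaled to library totals, which moved the median of all tested genes to -0.11 from 0.02, -0.68 with a filter of 1 FPKM, -0.62 on mean log2(FPKM + 1), and -1.06 to -0.67 with 1 library left out. The median 2A share, purple minus white, was -6.70 percentage points over all triads and -19.1 when triads were aligned by order, where 25 of 26 triads lay in the inner segment. The cause of these shifts was not tested. Without purple replicate 3 there were 37 genes called lower, 5 higher, 16 without purple counts and 18 triads with a lower 2A share, beside 18 with all libraries. Depth limits the genes without counts: fewer than 3 counts per library could not be told from 0.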
